A study of Homo sapiens with 12 samples.

Results

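The AP-1 and small MAF transcription factors comprised 10 genes, chosen by symbol from the 36486 features of the deposited gene count table: FOS, FOSB, FOSL1 and FOSL2, JUN, JUNB and JUND, and MAFF, MAFG and MAFK. Each had 1 gene identifier and passed the filter on low counts in both cell lines, among 14177 genes tested in TOV-112D and 14275 tested in Saos-2. RNA-seq was performed on 12 libraries. TOV-112D is an ovarian adenocarcinoma line that carries p53 with the R175H substitution, and all of its groups share this mutant p53 and 3 h of treatment: DMSO (the vehicle, n = 2), UCI-1001 (n = 2) and UCI-1014 (n = 2), both of the last being candidate activators of mutant p53 known by code names. Saos-2 is an osteosarcoma line without functional p53, and its groups were the p53-null parental cells (n = 3) and engineered cells with inducible wild-type p53, termed p53-WT (n = 3), both labelled with 16 h of induction. The p53-WT cells thus differ from p53-null in their engineering as well as in p53, and these cannot be told apart. The dose of UCI-1014 was not given in the sources used here, so the compounds may not have been dosed alike. Nothing in the labels says that libraries came from separate cultures, so p-values measure only the spread between these libraries, which may be technical.

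AP-1 is a dimer of basic leucine zipper proteins. JUN proteins pair with each other or with FOS proteins, whereas FOS proteins need a JUN partner, and the dimer binds the sequence known as the TPA response element (TRE) or the related cyclic AMP response element (CRE). FOS, FOSB, JUN and JUNB are immediate early genes, whose transcription can rise within minutes of growth signals or stress without new protein synthesis. The small MAF proteins have a leucine zipper but no activation domain: as homodimers they repress, and as partners of NFE2L2 (NRF2) and its relatives they activate antioxidant response element (ARE) genes, which BACH1 with a small MAF partner represses.

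Promoters are shown because several of these genes are known to be controlled through AP-1-type sites in their own promoters. RefSeq promoter windows on GRCh38.p14, spanning 250 bases before to 50 after a start, were matched for FOS, FOSB, FOSL2, JUN, JUNB, JUND, MAFF and MAFG, with 2 windows for MAFF. FOSL1 and MAFK had no entry. The most strongly moved JUN family gene, JUN, held TGACATCA, a TRE-like sequence, from base -67 to base -60, here in capitals within the 230 bases from -250 to -21 on the minus strand at chr1:58784068-58784297.
JUN promoter: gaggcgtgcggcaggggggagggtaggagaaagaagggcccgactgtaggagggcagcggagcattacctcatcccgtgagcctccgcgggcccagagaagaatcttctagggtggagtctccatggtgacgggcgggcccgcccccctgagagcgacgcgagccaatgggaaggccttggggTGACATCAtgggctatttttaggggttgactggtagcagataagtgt

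The CRE, TGACGTCA, stood in the windows of MAFF (bases -54 to -47, at chr22:38201930-38201957, plus strand) and JUND (bases -200 to -193, at chr19:18281795-18281842, minus strand). Both are shown with the CRE in capitals. The MAFF stretch lies before the start of the transcript MAFF-201 but inside exons of other annotated MAFF transcripts.
MAFF CRE: gccgggtcggTGACGTCAccgcatgact
JUND CRE: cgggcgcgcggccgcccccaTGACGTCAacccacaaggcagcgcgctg

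FOS, FOSB and JUNB, 3 of the immediate early genes, each held a TATAAA box on the strand of the gene. It ran from base -33 to -28 in FOS, -30 to -25 in FOSB and -31 to -26 in JUNB. The window of JUN, also an immediate early gene, held no TATAAA. The boxes are shown in capitals (FOS at chr14:75278775-75278820, FOSB at chr19:45467946-45467990, JUNB at chr19:12791435-12791480, all on the plus strand).
FOS TATA: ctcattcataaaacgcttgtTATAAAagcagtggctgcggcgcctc
FOSB TATA: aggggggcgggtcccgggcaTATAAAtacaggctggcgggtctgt
JUNB TATA: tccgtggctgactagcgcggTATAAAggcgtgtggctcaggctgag

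Of 35116 promoter windows of the same length, 2.37% held TGACATCA and 1.65% TGACGTCA on either strand, and 6.8% held TATAAA on the given strand. TGACNNNGC, the core of the ARE, stood in the windows of JUND and MAFF and in 10.9% of all windows, on either strand. No match of one motif overlapped a match of another. TGACTCA (4.2% of all windows), GAANNTTCNNGAA of the heat shock element (0.441%), the CArG box (1.16%) and the p53 half-site (5.57%), each searched on both strands, matched none of the 9 windows of these genes. A match describes letters in the window and is not evidence of binding. Sequence outside the windows, such as that farther upstream, was not searched. The lack of a match therefore does not show that a gene, FOS included, has no such site.

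The libraries held 17762027 to 20717898 counts in TOV-112D and 19593655 to 24629558 in Saos-2. Many defining markers of the lines were absent or low. Of 7 osteoblast markers, SP7 was at 0 counts in every Saos-2 library, IBSP, BGLAP and ALPL were at 0 to 0.532 CPM (counts scaled to the library size with TMM factors) and COL1A1 at 0.397 to 1.84 CPM, while RUNX2 (4.16 to 12.1 CPM) was present and, like COL1A1, lower in p53-WT. In the same libraries the epithelial keratin KRT18 stood at 402 to 558 CPM. Of 6 ovarian and epithelial markers, KRT18 was at 0 counts in all 6 TOV-112D libraries, PAX8, MUC16 and KRT8 were at 0 to 0.512 CPM, and WT1 and EPCAM were at 1.14 to 3.09. The blood and endothelial markers PTPRC, CD14, PECAM1 and VWF were at most at 2.94 CPM in any library. Their part in the results was not tested.

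In TOV-112D cells, most of these genes were higher after 3 h with either compound. With UCI-1001, 9 of 10 rose against DMSO and none fell (edgeR quasi-likelihood test, Benjamini-Hochberg adjusted p under 0.05, and 0 fell at an unadjusted p under 0.05 or with DESeq2), where 9.39% of all genes tested rose and 6.36% fell. With UCI-1014, 10 of 10 rose, where 23.7% of all genes rose and 23.4% fell. The median log2 fold change of the 10 genes was 0.72 for UCI-1001 against 0.00 over all genes tested, and 1.97 for UCI-1014 against -0.02. A log2 fold change above 1 was reached by FOS, FOSB, JUN and MAFF with UCI-1001, and by these and FOSL1, FOSL2, JUND and MAFG with UCI-1014. Both compounds were set against the same DMSO libraries, so the comparisons are not independent. In bulk libraries a change in RNA per cell and a change in the share of cells that express a gene cannot be told apart.

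**Figure D1:**
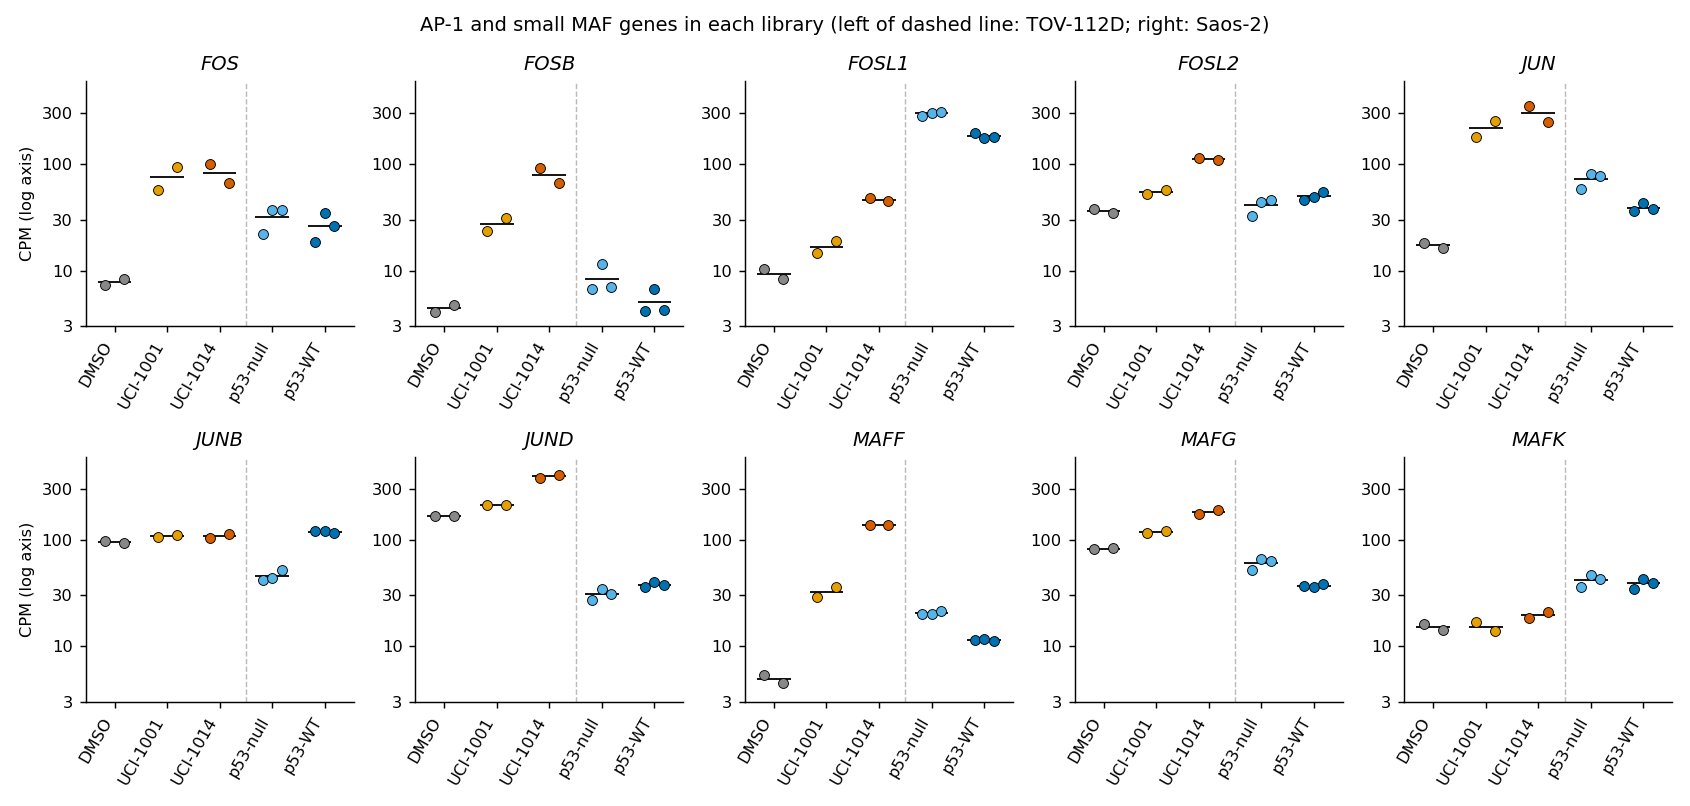
Level of each of the 10 genes in each of the 12 libraries, in CPM on a log axis. Each point is a library, the horizontal line is the group mean, and the dashed line separates TOV-112D (DMSO, UCI-1001, UCI-1014) from Saos-2 (p53-null, p53-WT). MAFF stands at 4.55 to 5.41 CPM in DMSO and at 137 in both UCI-1014 libraries.

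Among the FOS genes, FOS, the founding partner of JUN in AP-1, stood at 7.37 and 8.39 CPM with DMSO, at 57.0 and 92.9 with UCI-1001, and at 99.5 and 66.3 with UCI-1014. Every library with a compound was above both DMSO libraries, and the libraries of the compounds overlapped. The rise was 9.51-fold with UCI-1001 (95% interval 6.54 to 13.8, edgeR adjusted p = 7.2e-07) and 10.5-fold with UCI-1014 (7.21 to 15.2, adjusted p = 5.8e-08). FOSB, whose products include a full-length and a shorter protein, stood at 4.12 and 4.71 CPM with DMSO, at 23.3 and 31.3 with UCI-1001, and at 91.0 and 66.9 with UCI-1014. The 3 groups did not overlap. FOSB rose 6.18-fold with UCI-1001 (4.56 to 8.37, edgeR adjusted p = 7.26e-07) and by 4.15 ± 0.18 on the log2 scale with UCI-1014 (SE, adjusted p = 1.74e-10).

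FOSL1 and FOSL2, which encode FRA-1 and FRA-2, FOS relatives without its strong activation domain, moved less. FOSL1 stood at 10.3 and 8.39 CPM with DMSO, at 14.7 and 18.8 with UCI-1001, and at 48.0 and 44.8 with UCI-1014. The order of the 3 groups was the same as for FOSB, without overlap. Its log2 fold change was 0.84 ± 0.13 (SE, edgeR adjusted p = 0.000473) with UCI-1001 and 2.31 ± 0.12 (adjusted p = 7.79e-10) with UCI-1014. FOSL2 stood at 37.7 and 34.8 CPM with DMSO, at 52.5 and 56.8 with UCI-1001, and at 113.8 and 109.5 with UCI-1014. Its groups did not overlap either, and its log2 fold changes were 0.59 ± 0.06 (edgeR adjusted p = 2.22e-05) and 1.62 ± 0.06 (adjusted p = 3.15e-11). With TPM and limma in place of counts, FOSL1 was not called with UCI-1001 (log2 fold change 0.77, adjusted p = 0.0716), and in a single edgeR fit of all 12 libraries FOSL2 was not (0.56, adjusted p = 0.0868).

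JUN, which can transactivate as a homodimer as well as with FOS, showed the largest change of the 10 genes with UCI-1001. It stood at 18.2 and 16.3 CPM with DMSO, at 177 and 254 with UCI-1001, and at 353 and 250.0 with UCI-1014. All 4 libraries with a compound were far above DMSO, but UCI-1001 replicate 2 was slightly above UCI-1014 replicate 2. JUN rose 12.5-fold with UCI-1001 (9.36 to 16.7, edgeR adjusted p = 1.46e-08) and 17.4-fold with UCI-1014 (13.1 to 23.2, adjusted p = 3.68e-10). JUN, MAFF and JUND, which hold TGACATCA or the CRE, rose with both compounds. FOS, FOSB, FOSL2, JUNB and MAFG, whose windows held neither of these exact sequences, rose too. The windows of FOS, FOSB and FOSL2 held the near matches TGACGTTT, TGACGTAA and TGACGTGA, which were not searched for. Whether any of these sites plays a part was not tested.

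JUND, the JUN family member that is often abundant in resting cells, stood at 166 and 168 CPM with DMSO, at 211 and 213 with UCI-1001, and at 377 and 407 with UCI-1014. The groups did not overlap, and the log2 fold changes were 0.34 ± 0.04 (edgeR adjusted p = 7.35e-05) and 1.23 ± 0.04 (adjusted p = 1.19e-11). The first of these was not called in the single fit of all 12 libraries (0.31, adjusted p = 0.199). JUNB, a weaker activator that can counter JUN, moved least of the 3. It stood at 96.3 and 93.4 CPM with DMSO, at 106.7 and 110.2 with UCI-1001, and at 103 and 113 with UCI-1014.

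JUNB rose 1.14-fold with UCI-1001 (1.06 to 1.23, edgeR adjusted p = 0.0199) and 1.14-fold with UCI-1014 (1.06 to 1.23, adjusted p = 0.00735). These small calls did not hold under all settings. For UCI-1001 the edgeR adjusted p was 0.107 without DMSO replicate 1, 0.186 without DMSO replicate 2 and 0.133 without UCI-1001 replicate 2. For UCI-1014 it was 0.0878 without DMSO replicate 2 and 0.0785 without UCI-1014 replicate 2.

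Among the small MAF genes, MAFF had a larger log2 fold change than MAFG and MAFK with each compound. MAFF, the stress-responsive one, stood at 5.41 and 4.55 CPM with DMSO, at 28.9 and 35.8 with UCI-1001, and at 136.8 and 136.6 with UCI-1014. The 3 groups were far apart. MAFF rose 6.47-fold with UCI-1001 (5.38 to 7.77, edgeR adjusted p = 2.73e-09) and 27.4-fold with UCI-1014 (23.4 to 32, adjusted p = 1.13e-13), the largest change of the 10 genes with UCI-1014. MAFG, a main partner of NFE2L2, stood at 82.0 and 83.2 CPM with DMSO, at 116 and 120 with UCI-1001, and at 173 and 190 with UCI-1014. Its groups did not overlap, and its log2 fold changes were 0.51 ± 0.05 (edgeR adjusted p = 8.41e-06) and 1.13 ± 0.05 (adjusted p = 1.87e-10). With TPM and limma the first was not called (0.54, adjusted p = 0.0607).

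MAFK, the third small MAF gene, stood at 16.1 and 14.2 CPM with DMSO, at 16.9 and 13.8 with UCI-1001, and at 18.6 and 20.8 with UCI-1014. UCI-1001 and DMSO overlapped, with a ratio of 1.01 (0.854 to 1.19, edgeR adjusted p = 0.961), and the sign of this difference turned under several settings. With UCI-1014, MAFK rose 1.3-fold (1.1 to 1.53, edgeR adjusted p = 0.011). That call was lost without DMSO replicate 2 (adjusted p = 0.118) and without UCI-1014 replicate 2 (adjusted p = 0.0838).

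**Figure D2:**
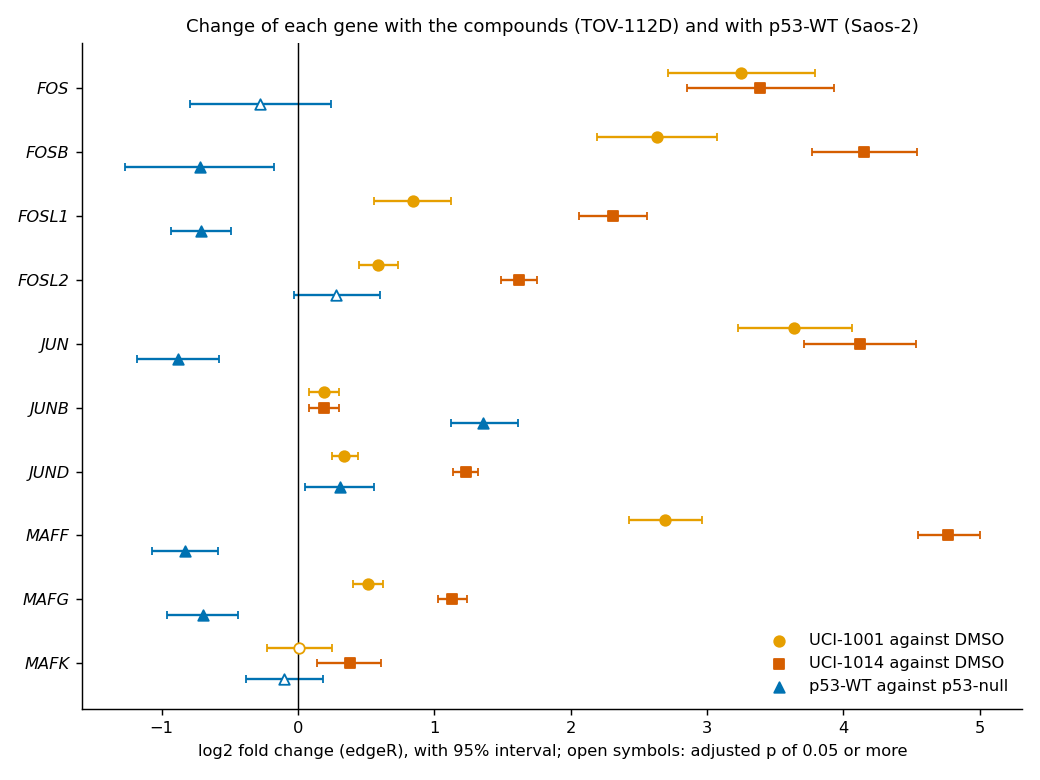
Log2 fold change of each gene by edgeR, with its 95% interval, for UCI-1001 and UCI-1014 against DMSO in TOV-112D and for p53-WT against p53-null in Saos-2. Filled symbols have an adjusted p under 0.05. JUN and MAFF lie at 3.64 and 2.69 with UCI-1001, at 4.12 and 4.77 with UCI-1014, and at -0.88 and -0.83 with p53-WT.

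Set directly against UCI-1001, UCI-1014 gave higher levels of 8 of the 10 genes by edgeR (6 by DESeq2) and lower levels of none (0 also at an unadjusted p under 0.05 and with DESeq2), where 17.1% of all genes tested were higher and 13.9% lower by edgeR. The difference was tested for this single pair of compounds at the same time of 3 h, and whether the doses matched is not known. MAFF differed most, being 4.23-fold higher with UCI-1014 (3.77 to 4.74, edgeR adjusted p = 1.57e-10). FOSB was 2.88-fold higher (2.36 to 3.51, edgeR adjusted p = 9.89e-07), FOSL1 2.77-fold (2.37 to 3.23, adjusted p = 1.2e-07) and FOSL2 2.04-fold (1.88 to 2.23, adjusted p = 9.32e-09). JUND was 1.85-fold higher (1.74 to 1.97) and MAFG 1.54-fold (1.43 to 1.65), with edgeR adjusted p-values of 1.64e-09 and 3.01e-07.

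JUN was 1.39-fold higher with UCI-1014 (1.13 to 1.72, edgeR adjusted p = 0.0182), yet its libraries overlapped, and the call was lost with DESeq2 (adjusted p = 0.234), without UCI-1001 replicate 1 (edgeR adjusted p = 0.158) and without UCI-1014 replicate 1 (adjusted p = 0.247). MAFK was 1.29-fold higher (1.1 to 1.51, edgeR adjusted p = 0.0201), a call lost with DESeq2 (adjusted p = 0.0734), without UCI-1001 replicate 2 (edgeR adjusted p = 0.155) and without UCI-1014 replicate 2 (adjusted p = 0.123). FOS did not pass the test, with a ratio of 1.1 and an interval of 0.842 to 1.44 (edgeR adjusted p = 0.614). Without UCI-1001 replicate 2 it was called (log2 fold change 0.55, edgeR adjusted p = 0.0128), and without UCI-1001 replicate 1 or UCI-1014 replicate 1 the difference was -0.16. JUNB had a ratio of 0.998 and an interval of 0.925 to 1.08 (edgeR adjusted p = 0.975).

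In Saos-2 cells the same genes moved in both directions with p53-WT. Against p53-null, 2 of 10 rose and 5 fell, where 33.5% of all genes tested rose and 33.0% fell. The median log2 fold change of the 10 genes was -0.49, against -0.01 over all genes tested. FOSB, FOSL1, JUN, MAFF and MAFG, which rose with both compounds in TOV-112D, were the 5 that fell. Because 9 of the 10 genes rose with both compounds, this overlap was nearly fixed in advance. The cell lines, the times and the perturbations differ between these comparisons. JUN and MAFF had been singled out for this pattern on earlier results of these data, so their values describe it.

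JUN stood at 58.0, 79.9 and 77.3 CPM in p53-null and at 36.3, 43.0 and 37.7 in p53-WT, without overlap. Its log2 fold change was -0.88 ± 0.14 (edgeR adjusted p = 0.000184). MAFF stood at 19.9, 19.9 and 21.4 CPM in p53-null and at 11.5, 11.7 and 11.3 in p53-WT, again without overlap, and changed by -0.83 ± 0.11 (edgeR adjusted p = 4.77e-05). MAFG stood at 52.0, 66.5 and 63.1 CPM in p53-null and at 36.5, 36.3 and 38.7 in p53-WT. All 3 p53-WT libraries were lower, and its log2 fold change was -0.70 ± 0.12 (edgeR adjusted p = 0.000289). FOSL1, the most abundant FOS gene of this line, stood at 283, 302 and 311 CPM in p53-null and at 197, 174 and 177 in p53-WT. It changed by -0.71 ± 0.10 (edgeR adjusted p = 8.98e-05), without overlap.

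JUNB went the other way. It stood at 42.2, 43.9 and 51.9 CPM in p53-null and at 120.3, 120.8 and 114 in p53-WT, and rose 2.58-fold (2.17 to 3.06, edgeR adjusted p = 1.11e-06). JUNB, which moved least among the JUN genes with the compounds, thus moved most with p53-WT. JUND stood at 27.3, 34.1 and 30.7 CPM in p53-null and at 36.1, 40.0 and 37.9 in p53-WT, a log2 fold change of 0.31 ± 0.11 (edgeR adjusted p = 0.034). This call was lost without p53-null replicate 1 (edgeR adjusted p = 0.0886) or 3 (0.0853) and without p53-WT replicate 2 (0.108) or 3 (0.0825), and with TPM the change was 0.08.

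FOSB stood at 6.68, 11.5 and 7.06 CPM in p53-null and at 4.21, 6.77 and 4.32 in p53-WT. The groups overlapped, and the log2 fold change was -0.72 ± 0.25 (edgeR adjusted p = 0.0226). The call was lost without p53-null replicate 2 (-0.43, edgeR adjusted p = 0.127), without p53-WT replicate 1 (adjusted p = 0.0743) and without p53-WT replicate 3 (adjusted p = 0.0628). FOSB lies within the longer gene ERCC1 on the opposite strand, which had up to 8990 counts in a library, and whether reads were counted by strand was not given in the sources used here. FOS, FOSL2 and MAFK did not pass the test with p53-WT. FOS stood at 22.0, 36.8 and 37.1 CPM in p53-null and at 18.6, 34.6 and 26.1 in p53-WT, with overlap (log2 fold change -0.28 ± 0.23, edgeR adjusted p = 0.317). Without replicate 1 of both groups, the lowest FOS libraries of each, FOS was called at -0.29 (edgeR adjusted p = 0.0247). FOSL2 (32.5 to 46.2 CPM in p53-null, 45.9 to 54.8 in p53-WT) and MAFK (36.0 to 46.3, and 34.6 to 43.0) overlapped between the groups. FOSL2 had a log2 fold change of 0.28 ± 0.14 (edgeR adjusted p = 0.1, and 0.0252 without replicate 1 of both groups) and MAFK of -0.10 ± 0.13 (adjusted p = 0.496).

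Levels were compared between genes as TPM, a measure of transcript abundance within a library that corrects for transcript length. In DMSO the JUN family summed to 255 TPM, made up of JUND (61.2%), JUNB (35.7%) and JUN (3.12%). With the compounds JUN made up 23.9% ± 3.89 (SD, n = 2, UCI-1001) and 22.4% ± 4.88 (SD, n = 2, UCI-1014) of a family total of 414 and 604 TPM. JUND was first in all 6 TOV-112D libraries. JUN and JUNB overlapped with UCI-1001, and JUN was second in both UCI-1014 libraries. In p53-null the family was more even, with JUNB at 40.1%, JUN at 30.2% and JUND at 29.6% of 97.4 TPM, and the ranges of JUN and JUND overlapped. In p53-WT JUNB made up 66.2% ± 1.07 (SD, n = 3) and JUN 10.6% ± 0.755 of 130 TPM.

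The FOS family was small in DMSO, at 32.5 TPM, with FOSL1 (35.5%), FOSL2 (29.9%) and FOS (27.4%) close together and FOSB at 7.32%. It summed to 119 ± 28.1 TPM (SD, n = 2) with UCI-1001, of which FOS was 54.1%, and to 201 ± 34.5 TPM with UCI-1014, where FOS was 33.8%, FOSL1 26.5% and FOSB 23.5%. Saos-2 cells had a different composition. FOSL1 alone made up 88% ± 2.17 (SD, n = 3) of 348 TPM in p53-null and 82.1% ± 3.4 of 195 TPM in p53-WT.

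The small MAF genes summed to 39.6 TPM in DMSO, 70.4 in UCI-1001 and 164 in UCI-1014 libraries. MAFG gave way to MAFF in this sum. Its share went from 68.9% with DMSO to 57.3% after UCI-1001 and 38.5% after UCI-1014, although its own level rose, and MAFF went from 8.57% to 31.4% and 55.2%. MAFK, which hardly moved in level, went from 22.4% to 11.4% and 6.34%. In Saos-2 MAFK held the largest share, 38.3% in p53-null beside 35.8% for MAFG with overlapping ranges, and 49.3% ± 2.79 (SD, n = 3) in p53-WT, where the sum was 31.4 TPM against 49.7 in p53-null.

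**Figure D3:**
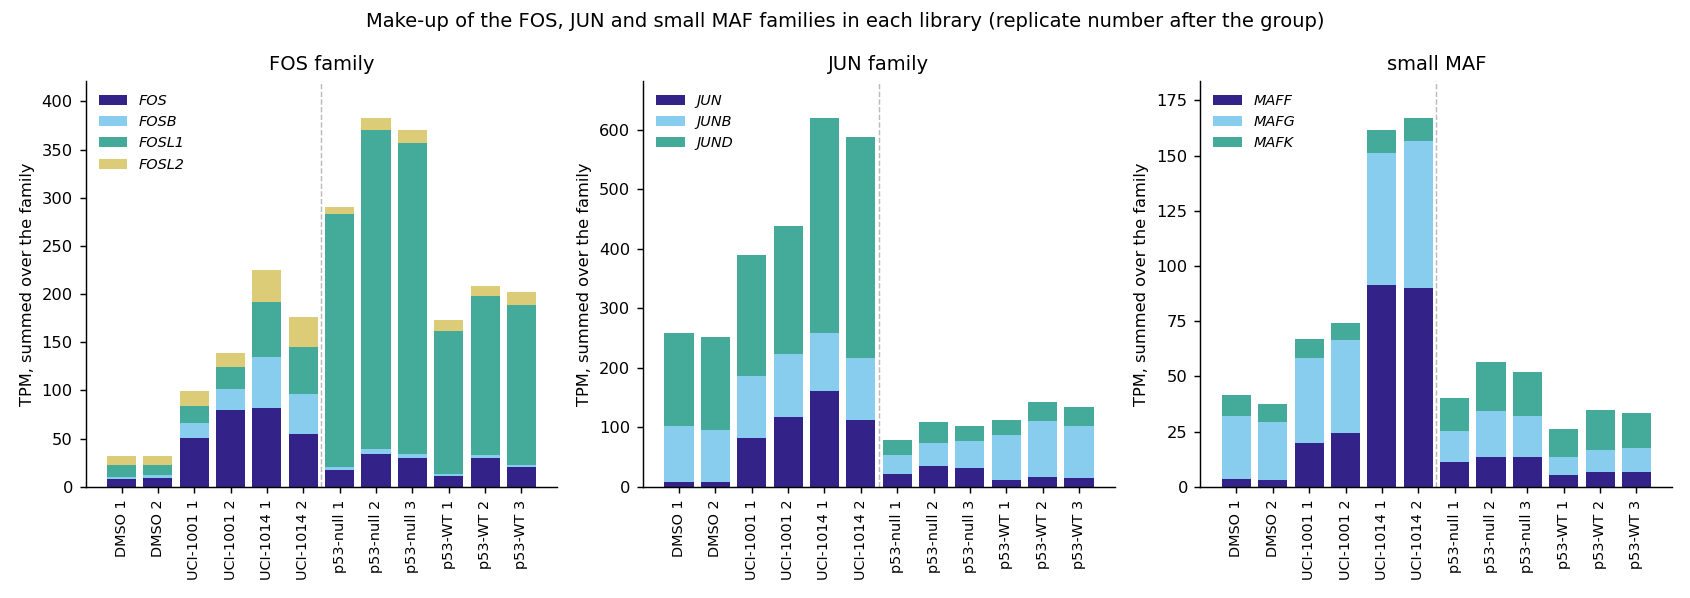
TPM of the FOS, JUN and small MAF families in each library, stacked by gene, with bars starting at 0. In TOV-112D (left of the dashed line) the small MAF bars go from 39.6 TPM on average with DMSO to 164 with UCI-1014, mostly through MAFF, and in Saos-2 (right) FOSL1 fills most of the FOS family bar.

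The transcript estimates add to this for 3 genes. MAFF-201, the transcript whose start at base 38201994 of chromosome 22 follows the CRE shown above, made up 78 to 97.1% of MAFF TPM in the TOV-112D libraries. In Saos-2 it made up 42.7 to 73.9%, and MAFF-204, which starts downstream at base 38203020, made up 8.83 to 49.3%, against at most 0.615% in TOV-112D. FOS-201, the main coding transcript of FOS, made up 48 and 58.1% of FOS TPM with DMSO and 85.1 to 93.4% with the compounds. FOSB-201 and FOSB-211 were picked as the FOSB transcripts with the highest mean TPM over the 12 libraries. The compound libraries, where FOSB is highest, dominate that mean, so a high share there was partly built in. Together they made up 76.8 to 86.7% of FOSB TPM with the compounds and 64.9 and 17.7% with DMSO, where FOSB as a whole was at only 2.26 and 2.5 TPM. Their share was at most 2.35% in p53-null and at most 20.3% in p53-WT. The remaining FOSB signal of p53-null, with FOSB-203 at 1.20 and FOSB-206 at 1.08 TPM on average, was assigned to other transcripts of the locus that ERCC1 spans. JUN and JUNB have a single exon and 1 transcript each, so no such split arises.

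Other genes of these pathways were taken as lists. Beside their counts stand the shares of all genes tested. With UCI-1001 9.39% rose and 6.36% fell, with UCI-1014 23.7% and 23.4%, and with p53-WT 33.5% and 33.0%. Of 7 further AP-1-class factors, ATF2, ATF3, ATF7, BATF3 and JDP2 were tested in TOV-112D, and 2 rose with each compound. ATF3, a stress-induced partner of JUN, stood at 1.75 and 1.41 CPM with DMSO, at 21.7 and 31.0 after UCI-1001, and at 93.2 and 75.3 after UCI-1014. It had log2 fold changes of 4.05 ± 0.24 (edgeR adjusted p = 4.52e-08) and 5.72 ± 0.2 (adjusted p = 1.83e-11), and rose by 1.74 ± 0.13 with p53-WT (adjusted p = 4.68e-07), unlike JUN. JDP2, a JUN-binding repressor, rose by 0.55 with UCI-1001, 1.31 with UCI-1014 and 0.67 with p53-WT. BATF3 fell with UCI-1014 (-0.48) and with p53-WT (-1.54). ATF2 fell with p53-WT (-0.59), ATF7 was not called in any comparison, BATF2 was tested in Saos-2 only and not called, and BATF was at 0 in every library. Of the large MAF genes, which carry an activation domain, MAFA rose with UCI-1014 (0.26) and from 0.23 to 0.482 CPM in p53-null to 9.21 to 11.7 in p53-WT. NRL was not called and MAF was not tested.

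Of the CNC and BACH partners of the small MAF proteins, the activator NFE2L2 and the repressor BACH1 both rose with each compound. NFE2L2 changed by 0.34 ± 0.06 (edgeR adjusted p = 0.00157) and 1.04 ± 0.06 (adjusted p = 3.22e-09), and BACH1 by 0.41 ± 0.08 (adjusted p = 0.00245) and 1.39 ± 0.08 (adjusted p = 1.93e-09). NFE2L1 (-0.14) and NFE2L3 (-0.23) fell slightly with UCI-1014. None of the 5 tested in Saos-2 (NFE2L1, NFE2L2, NFE2L3, BACH1 and BACH2) was called with p53-WT by edgeR or DESeq2, and 1 (NFE2L2, -0.24) had an unadjusted p under 0.05. NFE2 was not tested in either line. Of 12 ARE target genes, 8 rose with UCI-1001 and UCI-1014 raised 10, none falling with either compound by edgeR, at an unadjusted p under 0.05 (0) or by DESeq2 (0). With p53-WT, 5 rose and 3 fell. Their median log2 fold changes were 0.41, 1.16 and 0.10, beside the medians of all genes given above.

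HMOX1, the heme oxygenase held down by BACH1, led this list. It stood at 34.2 and 34.4 CPM in DMSO, at 295 and 351 after UCI-1001, and at 1229 and 1192 after UCI-1014, log2 fold changes of 3.24 ± 0.07 (edgeR adjusted p = 8.61e-13) and 5.14 ± 0.07 (adjusted p = 1.31e-15). The other large changes were in OSGIN1 (1.41 after UCI-1001 and 2.61 after UCI-1014) and GCLM, a subunit of the enzyme that starts glutathione synthesis (0.79 and 2.05). With p53-WT, HMOX1 (1.98), NQO1 (0.67) and ME1 (0.67) rose most, and SRXN1 (-1.05), SLC7A11 (-0.68) and GCLC (-0.42) fell.

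AP-1 target genes moved less uniformly. Of 18 listed, 13 were tested in TOV-112D, of which 3 rose and 1 fell with UCI-1001 and 9 rose and 2 fell with UCI-1014, with medians of 0.11 and 0.51. The stromelysin MMP3 rose by 3.28 ± 0.59 with UCI-1014 (edgeR adjusted p = 0.000343), but reached only 0.956 and 1.69 CPM. HBEGF, a growth factor, rose by 1.16 ± 0.22 with UCI-1001 (edgeR adjusted p = 0.00262) and by 2.59 ± 0.2 with UCI-1014 (adjusted p = 8.17e-08). VEGFA rose with UCI-1001 (0.34). The cyclin CCND1 fell with each compound (-0.23 and -0.24), as did TGFB1 with UCI-1014 (-0.15). With p53-WT 8 of 14 rose and 3 fell, led by the collagenase MMP1 (3.27), LIF (1.96) and SPP1 (1.40), with PLAUR (-1.42), CCND1 (-0.42) and VEGFA (-0.37) lower.

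**Figure D4:**
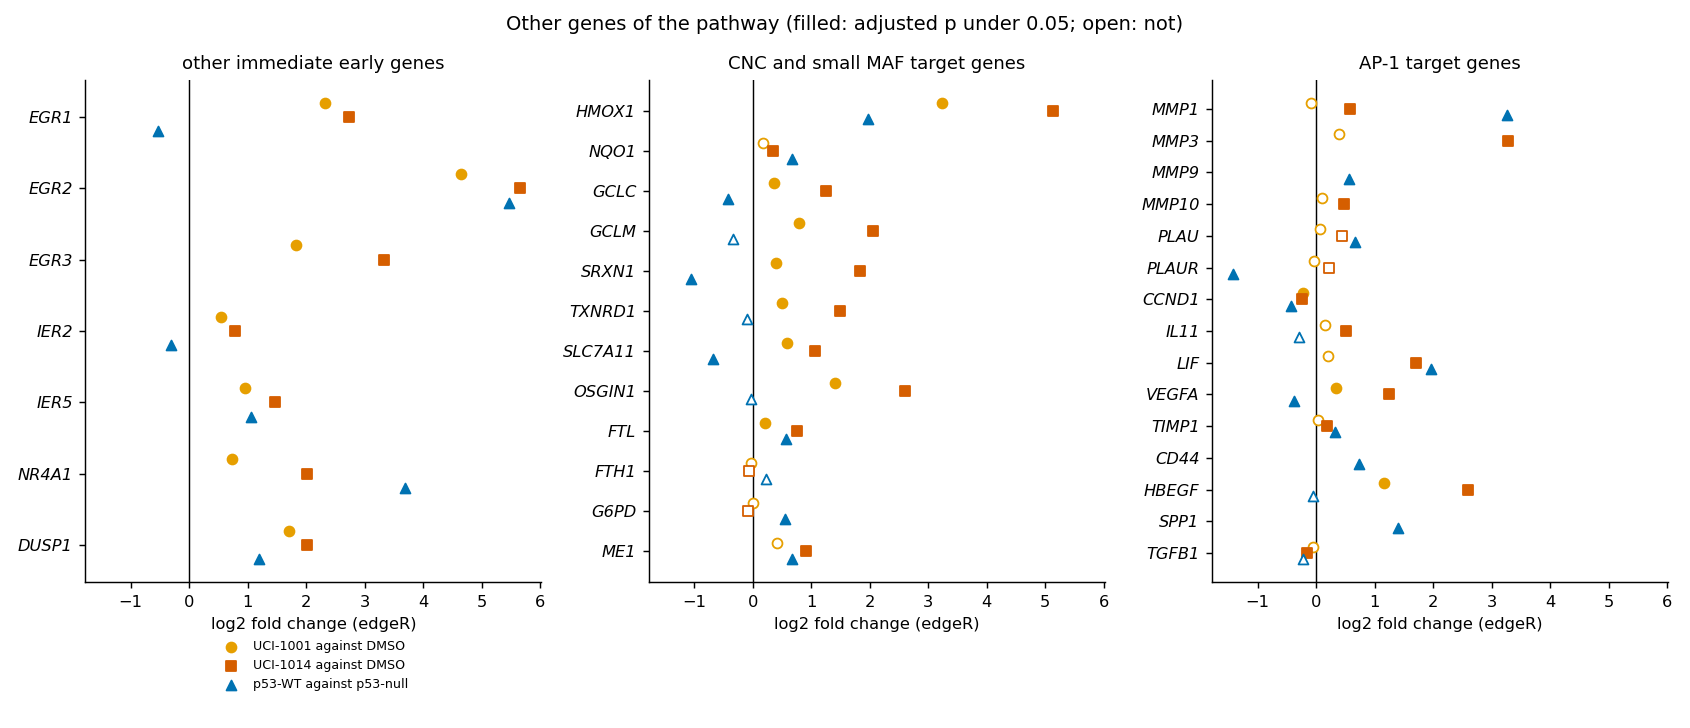
Log2 fold change by edgeR of 7 further immediate early genes, 12 ARE (CNC and small MAF) target genes and AP-1 target genes (1 of those tested is not shown), for each compound and for p53-WT against their controls. Filled symbols have an adjusted p under 0.05. HMOX1 lies at 3.24 and 5.14 with the compounds and at 1.98 with p53-WT, and most AP-1 target genes lie near 0 with UCI-1001.

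All 7 further immediate early genes (EGR1, EGR2, EGR3, IER2, IER5, NR4A1 and DUSP1) rose with each compound, with medians of 1.70 and 2.01. EGR1, a zinc finger factor induced by the same signals as FOS, changed by 2.32 ± 0.12 (edgeR adjusted p = 8.49e-09) and 2.73 ± 0.12 (adjusted p = 1.64e-10), while the other 6 ranged from 0.54 (IER2) to 4.65 (EGR2) with UCI-1001. With p53-WT, EGR1 (-0.54) and IER2 (-0.31) fell, whereas EGR2 (5.47), NR4A1 (3.69), DUSP1 (1.19) and IER5 (1.05) rose and EGR3 was not tested.

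Of the upstream machinery in TOV-112D, transcripts moved little with UCI-1001, and more of them were called with UCI-1014. More of all genes tested were called with UCI-1014 as well: 23.7% rose and 23.4% fell, against 9.39% and 6.36% with UCI-1001. Of 11 kinases upstream of AP-1, none rose with UCI-1001 by edgeR (0 also at an unadjusted p under 0.05 and with DESeq2) and 2 fell, MAPK7 (-0.32) and MAPK14 (-0.25). With UCI-1014 3 rose, with MAP2K4 at 0.40 and MAPK8 at 0.20 among them, and 2 fell, MAPK7 (-0.66) and MAPK14 (-0.30). With p53-WT MAP2K4 (1.16) and MAPK14 (1.12) rose and MAP3K5 (-1.14), MAPK7 (-1.06) and MAPK8 (-0.39) fell. Of the factors that act at the FOS and JUN promoters, SRF and MEF2D rose with UCI-1001 (0.21 and 0.24) and ELK3 fell (-0.13). With UCI-1014 MEF2D (0.68), SRF (0.63), ELK1 (0.53), MEF2A (0.26) and ELK4 (0.18) rose, ELK3 fell (-0.24) and MEF2C was not called. With p53-WT all 7 were called, where 33.5% of all genes tested rose and 33.0% fell. MEF2A (1.81), SRF (1.26) and MEF2D (0.93) were higher and ELK1 (-0.80), ELK4 (-0.76), MEF2C (-0.74) and ELK3 (-0.68) lower.

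The ubiquitin ligases that degrade JUN protein, COP1, DET1, FBXW7 and ITCH, were not called by edgeR or DESeq2 with UCI-1001, where 1 (ITCH, -0.13) had an unadjusted p under 0.05. DET1 (0.72) and ITCH (0.15) rose with UCI-1014, and FBXW7 (1.80) and COP1 (0.95) rose with p53-WT. These are transcript levels and do not measure kinase activity or protein.

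The genes most like JUN and MAFF were sought among 12576 genes tested in both lines, by Pearson's r over the 12 libraries of log2(CPM + 0.5) centred on each cell line, as a description across libraries that share groups. For JUN they were HSPA1L (r = 0.991), EGR1 (0.988), FOS (0.974), the phosphatase DUSP2 (0.971) and the co-chaperone DNAJB1 (0.968). HSPA1L has near-identical HSP70 paralogs, between which estimated counts can be split. For MAFF they were DNAJA1 (r = 0.996), HSPH1 (0.994), PPP1R15A (0.992), CHORDC1 (0.991) and HSP90AA1 (0.991). JUN and MAFF had an r of 0.935 with each other.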

How the data were processed

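RNA was extracted with the RNeasy kit and libraries were made and sequenced by a commercial provider. The deposited gene table holds raw whole-number counts for 40295 Ensembl genes, which the authors built from kallisto 0.48.0 transcript estimates (GRCh38) and used in DESeq2 1.38.3. The deposited file of each library holds estimated counts and TPM for 187626 transcripts, and TPM values deposited by the authors were summed per gene.

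Here counts were summed by symbol (8043 genes without a symbol and 29 with a date-like symbol kept by identifier) and tested with edgeR 4.0.16 in R 4.3.3 (TMM, filterByExpr, glmQLFit, glmQLFTest, Benjamini-Hochberg over all genes tested), with 1 fit per cell line and calls at an adjusted p under 0.05. edgeR put the variation between replicates (the common biological coefficient of variation) at 3.59% for TOV-112D and 12.3% for Saos-2. Groups and replicates came from the labels. Coordinates are from GENCODE release 44 and RefSeq, both on GRCh38. The tests were tested on simulated data. Alternatives used DESeq2 1.42.0, RLE factors, no filter, identifiers in place of symbols, a replicate block, other sets of libraries, and limma 3.58.1 on log2(TPM + 1). Figures used Python 3.11.15.

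Members and lists were chosen with earlier results of these data known. The text names every member, every gene of lists of up to 7 genes, and of longer lists the 3 largest called changes in each direction, and for JUN and MAFF the 5 genes most like each. CPM levels between genes are not compared. Depth bounds the precision: 3 counts equal 0.122 to 0.169 CPM per library. Some genes of the lists that enter the counts are not reported here by name.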

Additional observations from a re-analysis of the deposited data

How the results depend on the processing

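Of 560 recomputed changes of single genes (10 genes, 4 comparisons), 505 kept their direction and side of the threshold, 38 were no longer called, 5 became called and 12 changed sign, all of the last being differences that were not called. Calls lost when 1 library was left out are given with the genes above. With TPM and limma, adjusted p was 0.148 (UCI-1001) and 0.084 (UCI-1014) for JUNB, 0.236 for MAFK with UCI-1014, 0.279 for JUN and 0.112 for MAFK between the compounds, and 0.0899 for FOSB and 0.709 for JUND with p53-WT. In 1 edgeR fit of all 12 libraries it was 0.623 and 0.43 for JUNB, 0.18 for MAFK with UCI-1014, and 0.209 for JUN and 0.265 for MAFK between the compounds, while FOSL2 was called with p53-WT (0.0463). By identifier JUN between the compounds had 0.0516, and with no filter JUND with p53-WT had 0.0603. The number of genes called with UCI-1001 was 2232, against 1284 with DESeq2, 194 with TPM and limma, 308 in 1 fit of all 12 libraries, and 952 to 2538 when 1 library was left out (952 without DMSO replicate 1, 1020 without DMSO replicate 2 and 1188 without UCI-1001 replicate 2). With UCI-1014 it was 6677, against 4014 with TPM and limma and 3421 in 1 fit of all 12. For UCI-1014 against UCI-1001 it was 4406, against 2891 with DESeq2, 1682 with TPM and limma and 937 in 1 fit of all 12. The cause was not tested. MAFK with UCI-1001 was 0.01, but -0.14 with TPM and limma, -0.02 in 1 fit of all 12, and -0.14 to 0.15 when 1 library was left out. FOS between the compounds was 0.14, with a range of -0.16 to 0.55 when 1 library was left out. JUNB between the compounds was -0.00, but 0.00 with DESeq2, 0.01 with RLE factors, 0.00 by identifier, and -0.06 to 0.07 when 1 library was left out.

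Whether the replicate numbers pair the libraries could not be decided. Deviations of same-numbered libraries from their group means had r of -0.164 to 0.063 in TOV-112D. With n = 2 per group these deviations mirror each other, so differently numbered libraries only reverse the sign. In Saos-2 r was 0.075 to 0.139 for same-numbered and -0.184 to 0.132 for differently numbered libraries, and not every library correlated best with its own number. With the replicate block, the number of these 10 genes called stayed at 9, 10 and 8 in the TOV-112D comparisons and was 8 in place of 7 with p53-WT, where FOSL2 was called at 0.29 (edgeR adjusted p = 0.0371), and the number of all genes called was 1774, 6307, 3882 and 9814. With the numbers crossed between UCI-1001 and UCI-1014, chosen after seeing the data, 9 of the 10 genes and 5439 of all genes were called between them.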
